A study of Mus musculus with 15 samples.

Results

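The genes described here lie side by side on the distal part of mouse chromosome 12, in the interval chr12:111538016-113166048 (GRCm38), which runs over 1628 kb from Eif5 to Tedc1. They are the 38 protein-coding genes whose whole body lies in the interval, of 21474 protein-coding and 43629 genes in all in the count table. The interval was chosen by RNA levels measured in these libraries, which ran high over neighbouring genes in some of them, so the levels in P-Rspo3, dox-naive and WT libraries are given as a description without a test. Of the 38 members, 31 passed a filter on low values (at least 0.1 FPKM in 4 or more libraries, where FPKM are fragment counts scaled by transcript length and library size). The others were Tdrd9, Rd3l, Kif26a, A530016L24Rik, Tmem179, Gpr132 and Tex22. Kif26a reached 23 reads in its highest library, and the remaining ones reached 1 to 6.

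RNA sequencing was done on intestinal organoids, cultures of small intestinal epithelium from mice of mixed C57B6/129 background. The WT group held 4 libraries of Apc flox/flox lines (WT 1, 2, 5 and 6, in which the floxed Apc gene is not deleted) and 1 dox-naive library (WT naive), all kept in ENR medium, which contains EGF, Noggin and R-spondin. Apc libraries (Apc 1, 2, 5 and 6) came from Apc delta/delta organoids, and P-Rspo3 libraries (P-Rspo3 4d, 15d, M and F) from organoids with the Ptprk-Rspo3 rearrangement, an inversion on another chromosome that is made by doxycycline-induced Cas9. Both were kept in EN medium, which lacks R-spondin, so genotype and medium cannot be told apart. A library titled LIPO (genotype field dox-naive, ENR medium) and a library titled NAIVE_F (genotype field Ptprk-Rspo3, EN medium) have a title that does not go with, or does not explain, the genotype field, and they were kept out of the groups. The P-Rspo3 cultures were polyclonal populations selected without R-spondin, dox-naive organoids carry the editing transgenes without induction, and the labels do not say which culture or mouse each P-Rspo3 or dox-naive library came from.

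Genes of a chromosome segment share no pathway, but they share a gene dose: when cells carry an extra copy of a segment, the RNA of most genes in it tends to rise with the copy number, while genes under strong feedback or tissue control may not follow. RNA levels do not measure copy number, and no DNA data were used here. The interval holds genes of broad interest in the gut. Akt1 encodes a kinase that carries growth factor signals from PI3-kinase to cell growth and survival, Jag2 a ligand of the Notch receptors that set secretory against absorptive cell fate, and Ckb the brain-type creatine kinase, which buffers ATP.

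Total counts were 27466904 to 35528495 reads per library. Rspo3, the gene activated by the rearrangement, had 0 or 1 reads in the 5 WT libraries, 0 in LIPO, 729 in NAIVE_F, 539 to 1079 in P-Rspo3 and 7 to 57 in Apc, so the 2 libraries outside the groups went with their genotype fields. All 6 epithelial markers examined were present in every group, while summed stromal marker FPKM was at most 0.633. Their levels differed in Apc: Cdx1 had 3.55 to 6.12 FPKM against 53.3 to 84.0 in WT, and Vil1 82.3 to 99.0 against 149 to 207. Krt19 was lower as well (340 to 557 against 575 to 813), and Cdh1 was higher (164 to 205 against 110 to 145). Epcam and Krt8 overlapped. In Apc, Cd68 (3.65 to 10.1 FPKM against 0.539 to 1.35 in WT) and Cdh5 (1.13 to 1.89 against 0) were higher, whereas Ptprc was at most 0.00954 FPKM and Kdr was at 0. The part of these marker differences in the Apc values below was not tested.

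The segment as a whole was raised in all 4 P-Rspo3 libraries and in the dox-naive WT library, and in neither of the libraries outside the groups. For each library, the log2 ratio of TMM-normalized CPM (read counts scaled to the effective library size) to the mean of the 4 WT flox libraries was taken for each member, and the median over the 31 members is its segment level. The level was 0.95 in P-Rspo3 15d, 0.97 in 4d, 0.93 in M and 0.95 in F, or 0.95 ± 0.02 (SD, n = 4), which corresponds to ratios of 1.91 to 1.96. It was 0.81 in the dox-naive library, a ratio of 1.75. The WT flox libraries lay between −0.08 and 0.05, LIPO at 0.04 and NAIVE_F at −0.09. Segment level and Rspo3 RNA therefore did not go together in every library: the dox-naive library had a raised segment and no Rspo3 read, and NAIVE_F had 729 Rspo3 reads and a segment at the WT flox level. The 4 Apc libraries lay between 0.22 and 0.25, with members spread widely on both sides. In bulk RNA such as this, fewer cells of a type and less RNA per cell cannot be told apart.

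**Figure D1:**
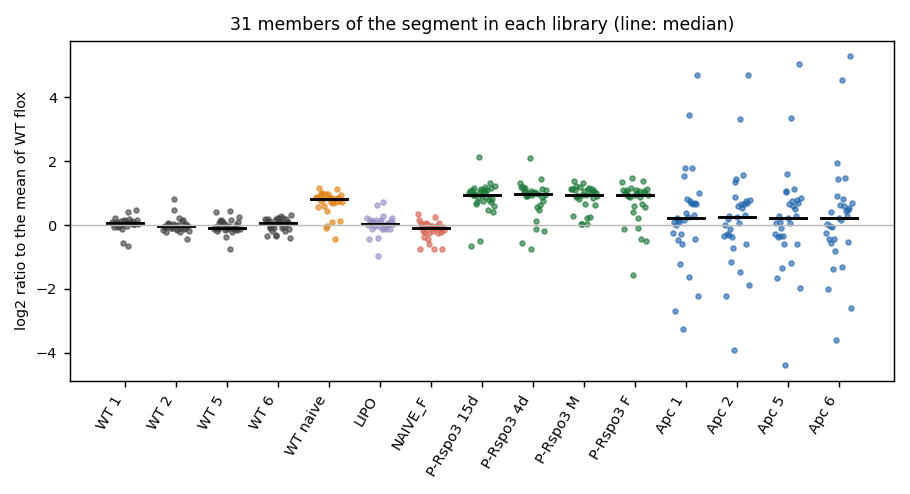
Log2 ratio of TMM-normalized CPM to the mean of the 4 WT flox libraries for the 31 members (points) in each of the 15 libraries, with the median as a line. The medians of the P-Rspo3 libraries are at 0.93 to 0.97 and that of WT naive at 0.81, while the WT flox libraries, LIPO and NAIVE_F stay between −0.09 and 0.05.

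Counted gene by gene, in 23 of 31 members (74.2%) all 4 P-Rspo3 libraries lay above all 4 WT flox libraries, against 4.37% of all genes tested. All 23 of these were also above every WT flox library in WT naive. The dox-naive library exceeded every WT flox library in 25 members (80.6%), where 16.5% of all genes did. In LIPO this held for 6 of 31 members (19.4%, against 17.5% of all genes) and in NAIVE_F for 3 (9.68%, against 19.8%). Below every WT flox library lay 1 member in WT naive (3.23%, against 17.9% of all genes), 5 in LIPO (16.1%, against 16.7%) and 11 in NAIVE_F (35.5%, against 18.8%). Because WT naive belongs to the WT group, only 11 members (35.5%) separated P-Rspo3 from all 5 WT libraries, against 2.34% of all genes. The median fitted log2 fold change of the members was 0.77 against the 5 WT libraries and 0.99 against the 4 WT flox libraries, beside medians of 0.00 and 0.01 over all genes. These shares and medians are treated as describing the values by which the interval was chosen.

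Outside the segment, the 31 expressed genes of the proximal flank had a median of 0.04 ± 0.08 (SD, n = 4) in P-Rspo3 and 0.00 in WT naive. The 414 genes of the rest of chromosome 12 had medians of 0.01 to 0.03 in P-Rspo3 15d, M and F, and 0.19 in 4d. Genes near the segment were mixed: Tnfaip2, 83.0 kb before Eif5, had a mean P-Rspo3 log2 ratio of −0.64 (range −1.54 to 0.01) and Exoc3l4, 106 kb before, −0.03, whereas Cdc42bpb, 160 kb before, had 0.56 (0.42 to 0.68), Amn, 262 kb before, 0.58 (0.28 to 1.03), and Traf3, 271 kb before, 0.03. WT naive had 0.28 in Cdc42bpb and 0.12 in Amn. Just inside, Eif5 had 1.21 (1.00 to 1.35) at the proximal end and Tedc1 1.04 (0.90 to 1.23) at the distal end. Beyond Tedc1 the first gene, Tmem121, was nearly silent (0.169 CPM in WT flox), and the next expressed one, Zfp386, lay 2881.7 kb away with 0.28 (0.19 to 0.42), followed by the weakly expressed Wdr60 with 0.74 (0.52 to 1.15, and 0.77 in WT naive). The place where the raised stretch ends on the distal side is therefore not resolved by expressed genes. The 11 distal flank genes had a median of 0.28 ± 0.18 in P-Rspo3 and 0.07 in WT naive. In Apc the medians were 0.72 ± 0.08 in the distal flank, −0.08 ± 0.04 in the proximal flank and 0.04 ± 0.01 over all protein-coding genes. Within the interval, 2 other annotated genes with at least 100 reads, Snora28, which lies inside Eif5, and Gm30238, had log2 ratios of 0.87 to 1.36 and 0.77 to 1.05 in the P-Rspo3 libraries and of 0.62 and 0.80 in WT naive.

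**Figure D2:**
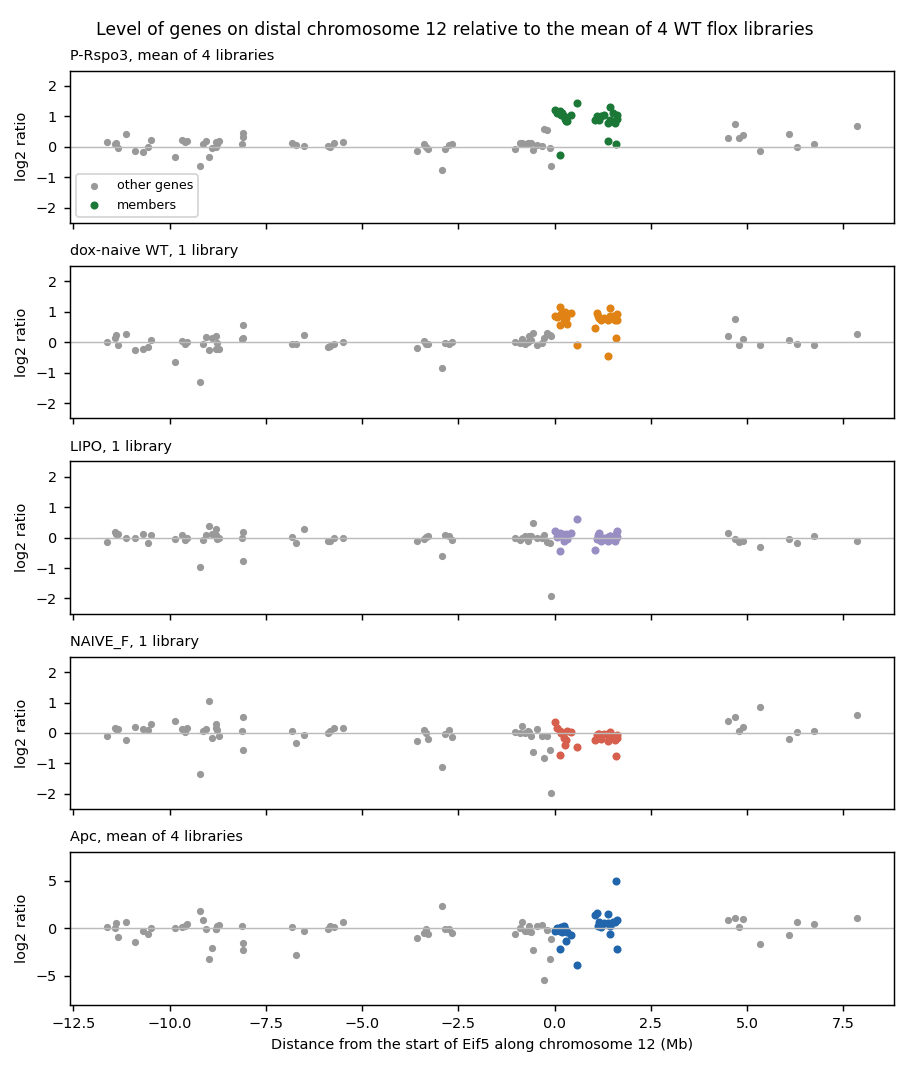
Log2 ratio to the mean of the 4 WT flox libraries (vertical axis, with a wider scale for Apc) of protein-coding genes with a mean CPM of at least 5, plotted by distance in Mb from the start of Eif5 along chromosome 12. Members form a raised block in P-Rspo3 and WT naive, and lie around 0 in LIPO and NAIVE_F.

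Akt1 showed the pattern of the segment with little spread. It had 255, 211, 212 and 258 CPM in WT 1, 2, 5 and 6, and 426 in WT naive. P-Rspo3 15d, 4d, M and F had 449, 469, 483 and 448, LIPO 248 and NAIVE_F 227. The P-Rspo3 values were all above every WT library, and LIPO and NAIVE_F were within the WT flox range. The log2 fold change of P-Rspo3 was 0.77 ± 0.19 (SE) against all WT and 0.99 ± 0.10 against WT flox. Per length, Akt1 RNA was 75.0 ± 9.48 FPKM in WT flox and 156 ± 9.11 in P-Rspo3 (SD, n = 4 each).

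Apart from Aspg, described below, the largest fitted log2 fold changes against all 5 WT libraries belonged to Brf1, Eif5, Mark3 and Pacs2. Against WT flox, Trmt61a (1.18 ± 0.14) exceeded Mark3 and Pacs2. Brf1, a subunit of the RNA polymerase III initiation factor TFIIIB, had 41.9, 37.4, 38.1 and 46.6 CPM in WT 1, 2, 5 and 6 and 89.1 in WT naive. In P-Rspo3 15d, 4d, M and F it had 102, 112, 90.3 and 106, in LIPO 42.8 and in NAIVE_F 42.2. Its log2 fold change was 1.02 ± 0.24 against all WT and 1.33 ± 0.10 against WT flox. The gene overlaps Btbd6, and reads in the shared stretch cannot be assigned with certainty. Eif5, a translation initiation factor that stimulates GTP hydrolysis at the start codon, had 586, 485, 501 and 621 CPM in the WT flox libraries and 1000.4 in WT naive. The P-Rspo3 libraries had 1092.8, 1371.7, 1199 and 1392.4 in the same order as above, LIPO 636 and NAIVE_F 702. Relative to the WT flox mean, LIPO and NAIVE_F lay 0.22 and 0.36 higher on the log2 scale, against 0.88 in WT naive. By FPKM both (172 and 159) were within the WT flox range of 129 to 178.

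Mark3, a kinase that regulates microtubule-binding proteins and cell polarity, had 85.9, 80.6, 81.0 and 91.6 CPM in WT flox, 151 in WT naive, and 175, 192, 185 and 183 in P-Rspo3. It had 85.2 in LIPO and 95.0 in NAIVE_F. Its log2 fold change was 0.91 ± 0.18, or 1.12 ± 0.08 against WT flox. Pacs2, a sorting protein of contacts between endoplasmic reticulum and mitochondria, had 77.9, 77.3, 70.0 and 81.6 CPM in WT flox and 139 in WT naive. It had 173, 170, 158 and 162 in P-Rspo3, 78.3 in LIPO and 72.0 in NAIVE_F, a log2 fold change of 0.90 ± 0.18 or 1.12 ± 0.08 against WT flox. Both genes had every P-Rspo3 library above every WT library, WT naive between the P-Rspo3 and the WT flox libraries, and no overlap between these sets.

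The 23 members that separated P-Rspo3 from WT flox had mean log2 ratios of 0.77 to 1.32, with a median of 1.01 in P-Rspo3 and 0.85 in WT naive. In 21 of the 23 the dox-naive library lay below the P-Rspo3 mean, and in 11 it lay below the lowest P-Rspo3 library. These members were picked by their P-Rspo3 values, which favours high P-Rspo3 levels. The counts and medians therefore do not show a lower level in the dox-naive library. The roles of the 23 members differ widely. Genes of RNA and protein synthesis or folding were Trmt61a (a tRNA methyltransferase, mean P-Rspo3 log2 ratio 1.17 and WT naive 1.17) and Bag5 (a cochaperone of HSP70, 1.04 and 0.92), beside Eif5 and Brf1. Mitochondrial genes were Apopt1, needed for cytochrome oxidase assembly, with 1.10 and 0.97, and Atp5mpl, a small protein of the ATP synthase, with 1.05 and 0.97. Genes of the cytoskeleton were Klc1 (kinesin light chain, 1.01 and 0.76), Cep170b (a relative of the centrosomal protein Cep170, 1.01 and 0.73) and Tedc1 (a partner of delta and epsilon tubulin, 1.04 and 0.73).

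Genes of DNA repair, the nucleus and cell division were Xrcc3 (a protein of homologous recombination repair), with log2 ratios of 0.92 in P-Rspo3 and 1.00 in WT naive, Mta1 (a subunit of the NuRD complex), with 0.79 and 0.74, Zbtb42 (a zinc finger protein), with 0.87 and 0.81, and Cdca4 (a cell cycle associated nuclear protein), with 1.03 and 0.81. Genes linked to cell death were Siva1, with 1.00 and 0.97, and Ppp1r13b, which encodes the p53-binding protein ASPP1, with 0.83 and 0.59. Zfyve21 (a FYVE domain protein of endosomes and adhesions) had 0.86 and 0.80, Btbd6 (a BTB domain protein) 0.87 and 0.85, Nudt14 (a UDP-sugar pyrophosphatase) 0.77 and 0.72, Clba1 (a clathrin-binding protein) 0.91 and 0.69, and Crip1 (a small LIM domain protein abundant in the intestine) 0.91 and 0.93. In LIPO the 23 members departed from the WT flox mean by at most 0.22, and in NAIVE_F they lay between −0.39 and 0.36. Xrcc3 overlaps Klc1 and Ppp1r13b overlaps Zfyve21, so their counts may be shared in part.

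**Figure D3:**
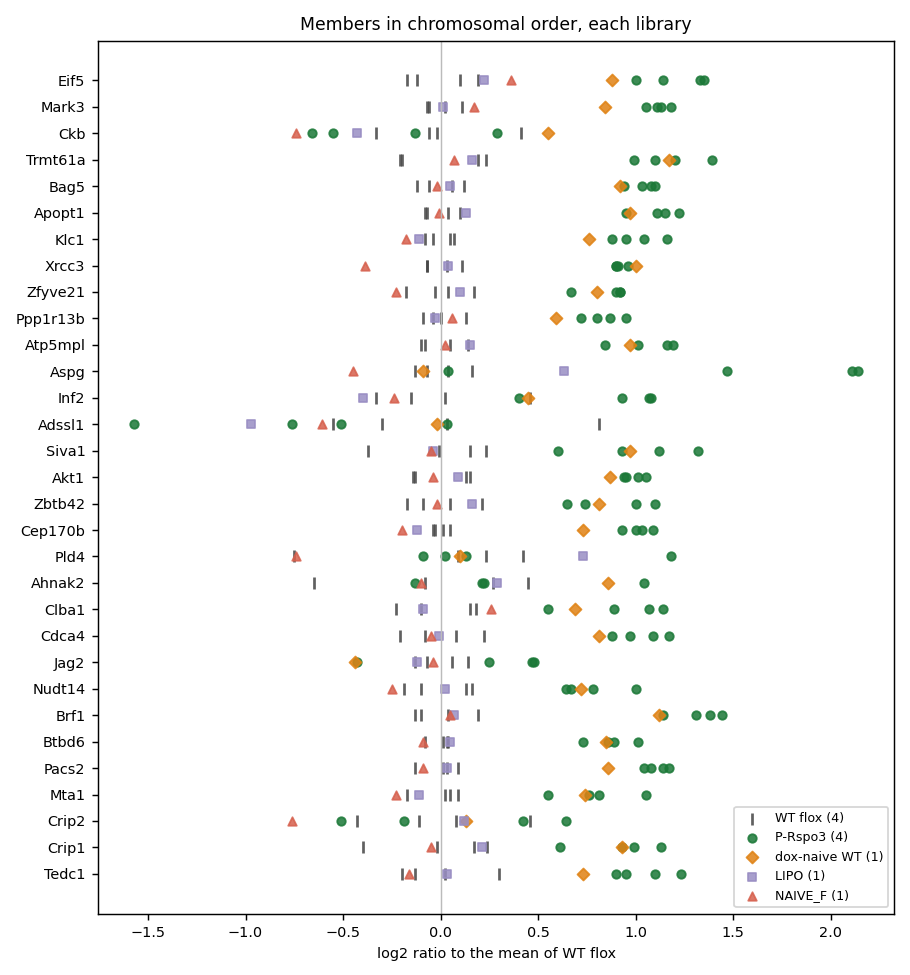
Log2 ratio of each library to the mean of WT flox for the 31 members in chromosomal order. In 23 members the 4 P-Rspo3 points and the dox-naive point lie to the right of all WT flox marks, and the other 8 (Ckb, Aspg, Inf2, Adssl1, Pld4, Ahnak2, Jag2 and Crip2) are spread or overlap them.

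Ckb lies between Mark3 and Trmt61a, both raised, and was not raised in P-Rspo3. It had 293, 301, 404 and 243 CPM in WT 1, 2, 5 and 6, 446 in WT naive, and 193, 208, 373 and 279 in P-Rspo3 15d, 4d, M and F. LIPO had 227 and NAIVE_F 183. WT naive was the highest of these libraries, and the P-Rspo3 libraries overlapped WT flox, with 15d and 4d below it. The log2 fold change was −0.35 ± 0.23 against all WT and −0.23 ± 0.22 against WT flox. In RefSeq promoters (GRCm38.p6, 250 bases before to 50 after the start), matched for 33 of the 38 members, the letters TATAAA on either strand occurred in 2 members, Ckb and the silent Rd3l, where 13.6% of all 32851 promoters hold them. The window of Ckb is shown with those letters in capitals, on the minus strand at chr12:111672349-111672378, and they begin 28 bases before the start.
Ckb: gaatgaatgggcTATAAAtagccgccaatg
A promoter window of Btbd6, one of the 23 members, is shown beside it because CTTTGAA or CTTTGAT, letters of the motif of the TCF/LEF factors through which beta-catenin acts, occurred on either strand in 2 of the 33 (Btbd6 and Aspg; 8.65% of all promoters). It lies on the plus strand at chr12:112976320-112976349, the capitals are the reverse complement of CTTTGAA and begin 151 bases before the start.
Btbd6: tcaggtgatttTTCAAAGcctgagctgttg
The palindrome CACGTG, letters of the E-box, was in 3 of 33 (Trmt61a, Tdrd9 and Inf2; 7.15% of all promoters). Median GC content was 67.5% in the 20 matched members that separated P-Rspo3 from WT flox and 65.0% in the 8 matched others past the filter, beside 52.7% over all promoters. These matches are a description of letters and were not tested for binding.

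Jag2 had 38.1, 40.3, 33.3 and 34.8 CPM in WT flox, 26.9 in WT naive, and 51.2, 50.9, 43.4 and 27.1 in P-Rspo3 15d, 4d, M and F. LIPO had 33.6 and NAIVE_F 35.4. In this gene 3 P-Rspo3 libraries lay above WT flox, while P-Rspo3 F and WT naive lay below it. The log2 fold change was 0.32 ± 0.18, or 0.24 ± 0.18 against WT flox.

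Aspg, which encodes an asparaginase, had the largest fold change and the largest spread. It had 23.6, 26.4, 24.5 and 28.7 CPM in WT flox and 24.2 in WT naive, against 114, 112, 26.5 and 71.6 in P-Rspo3 15d, 4d, M and F. LIPO had 39.8 and NAIVE_F 18.8. P-Rspo3 M was within the WT range, so the log2 fold change of 1.67 ± 0.33 rested on the other 3 libraries. WT naive was not raised.

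The other 5 members without the pattern were expressed at low levels, apart from Inf2. Inf2, a formin that remodels actin, had 33.8, 46.0, 30.0 and 26.5 CPM in WT flox, 45.8 in WT naive, 70.7, 70.4 and 63.8 in P-Rspo3 15d, 4d and M, and 44.2 in F, which was within the WT flox range. Adssl1, the muscle-type adenylosuccinate synthase of the purine nucleotide cycle, had 0.928, 2.77, 1.51 and 1.15 CPM in WT flox and 1.45 in WT naive. In P-Rspo3 15d, 4d, M and F it had 0.956, 0.763, 1.51 and 0.330, in LIPO 0.626 and in NAIVE_F 0.880. Its log2 fold change of −0.79 ± 0.43 came with overlapping libraries. Crip2, a LIM domain protein next to Crip1, had 0.960, 0.402, 0.678 and 0.561 CPM in WT flox, 0.708 in WT naive, and 0.925, 0.520, 1.11 and 0.366 in P-Rspo3. LIPO had 0.704 and NAIVE_F 0.268, and the log2 fold change was 0.15 ± 0.37. Pld4, an endolysosomal nuclease, had 0.301 to 0.992 CPM in WT flox and 0.623 to 1.85 in P-Rspo3, and Ahnak2, a large scaffold protein, 0.288 to 0.903 and 0.520 to 1.48. With standard errors of 0.37 to 0.43 for Crip2, Pld4 and Ahnak2, a difference of the size of the other members could not be resolved from none at these depths.

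**Figure D4:**
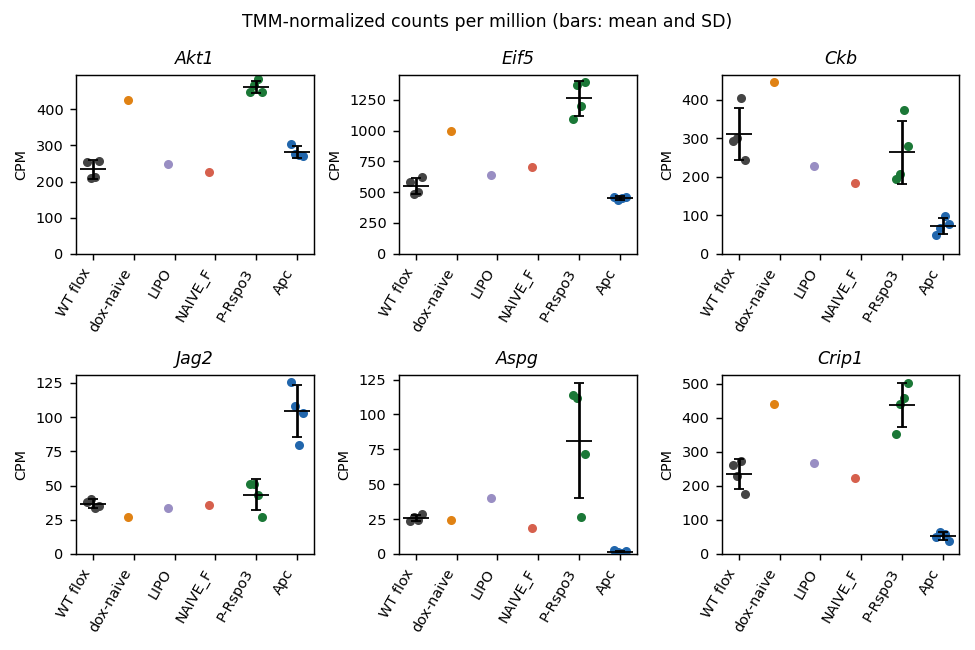
TMM-normalized CPM of 6 members by library, with the mean and SD of groups of 4. Akt1, Eif5 and Crip1 are higher in P-Rspo3 and WT naive than in WT flox, Ckb and Jag2 overlap between P-Rspo3 and WT flox, and Aspg varies from 26.5 to 114 among the P-Rspo3 libraries.

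Other genes of the pathways in which Akt1, Jag2 and Ckb act were read from lists chosen for these roles. Of 30 AKT signalling genes, 27 were tested in P-Rspo3 and WT, with a median log2 fold change of 0.03, beside 0.00 over all genes. The other kinase of the family past the filter, Akt2, had −0.03 ± 0.06, the upstream kinase Pdpk1 0.21 ± 0.08, the transcription factor Foxo1 −0.13 ± 0.06 and Foxo3 −0.31 ± 0.07. The Notch list had 26 of 29 genes tested and a median of 0.01, with the target Hes1 at −0.10 ± 0.12, the other ligand Jag1 at 0.27 ± 0.13 and the secretory factor Atoh1 at 0.24 ± 0.16. Lower values included Dll4 at −0.38 ± 0.18, Olfm4 at −0.37 ± 0.27 and, at low levels, Dll3 at −1.36 ± 0.48 and Notch3 at −0.49 ± 0.40. Of 7 genes of the creatine system, 5 were tested, with a median of −0.35, which is the value of Ckb itself. The mitochondrial kinase Ckmt1 had −0.12 ± 0.13, the transporter Slc6a8 −0.65 ± 0.24, Gamt −1.59 ± 0.43 and Gatm, at a low level, 1.11 ± 0.59, or 1.91 ± 0.45 against WT flox.

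In Apc organoids, in which the destruction complex that holds beta-catenin in check is lost, the members moved in both directions. The contrast was tested with edgeR's quasi-likelihood test and Benjamini-Hochberg adjustment over all genes. The WT libraries are treated as part of the choice of the interval, so these adjusted p-values are not taken as independent of it. Of the 31 members, 8 rose and 10 fell, where 30.0% of all genes rose and 29.0% fell. The counts include Ahnak2 and Pld4, which passed the filter only through the group in which they were higher and are given below without a test. Against the 4 WT flox libraries, 15 of 30 members rose and 9 fell (29.2% and 28.2% of all genes). That fit leaves out the dox-naive library, whose segment level was 0.81. With a log2 limit of 1 added to the test against all WT, 5 rose and 5 fell (12.2% and 14.1% of all genes).

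Among the members that rose, Crip2 had the largest change: 22.5, 22.4, 28.7 and 34.2 CPM in Apc 1, 2, 5 and 6, where WT had 0.402 to 0.960, a log2 fold change of 5.31 ± 0.24 (adjusted p = 3.6e-08). Its neighbour Crip1 went the other way, with 49.1, 62.9, 58.4 and 38.0 CPM in Apc and 175 to 440 in WT, a log2 fold change of −2.42 ± 0.26 (adjusted p = 1.7e-05). The Apc and WT libraries did not overlap for either gene. Ahnak2 had 0.288 to 1.27 CPM in WT and 9.03, 8.14, 8.30 and 19.2 in Apc (log2 fold change 3.87 ± 0.41). Jag2 rose by 1.57 ± 0.14 (adjusted p = 4.1e-06), with 126, 108, 80.0 and 103 CPM in Apc and 26.9 to 40.3 in WT. Inf2 (1.35 ± 0.21) and Siva1 (1.30 ± 0.23) rose as well, and Tedc1, Clba1 and Mta1 rose by 0.63, 0.60 and 0.44.

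Aspg fell most, to 2.48, 1.46, 0.978 and 1.89 CPM in Apc from 23.6 to 28.7 in WT, a log2 fold change of −3.92 ± 0.23 (adjusted p = 2.3e-07). Ckb had 47.4, 65.4, 97.3 and 76.4 CPM in Apc against 243 to 446 in WT, a log2 fold change of −2.26 ± 0.24 (adjusted p = 1.4e-05), and no libraries overlapped. Pld4 had 2 to 6 reads per Apc library and 8 to 31 in WT (log2 fold change −2.78 ± 0.43). Zfyve21 fell by 1.52 and Atp5mpl by 0.95 on the log2 scale, and Btbd6, Apopt1, Eif5 and Ppp1r13b had −0.79, −0.70, −0.52 and −0.52. These falls were smaller against WT flox, which leaves out the raised dox-naive library. In the same order they were then −1.32, −0.70, −0.57, −0.45, −0.30 and −0.39. The fall of Eif5 passed narrowly against all WT (adjusted p = 0.038).

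Akt1 had 305, 276, 273 and 270 CPM in Apc. Its log2 fold change was 0.02 ± 0.19 (adjusted p = 0.94) against all WT and 0.24 ± 0.09 (adjusted p = 0.039) against WT flox, so the call turns on the dox-naive library, which had 426 CPM. Zbtb42, Cdca4, Nudt14, Brf1 and Pacs2 were likewise called higher against WT flox (0.65, 0.57, 0.54, 0.27 and 0.66) and did not pass against all 5 WT libraries (adjusted p = 0.051, 0.095, 0.083, 0.92 and 0.058). Klc1 was called higher against WT flox (0.22, adjusted p = 0.041) and not against all WT (adjusted p = 0.88). Adssl1 had 0.79 ± 0.32 (adjusted p = 0.056) against all WT and 0.76 ± 0.36 (adjusted p = 0.096) against WT flox. Mark3, Trmt61a, Bag5, Xrcc3 and Cep170b passed in neither fit.

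**Figure D5:**
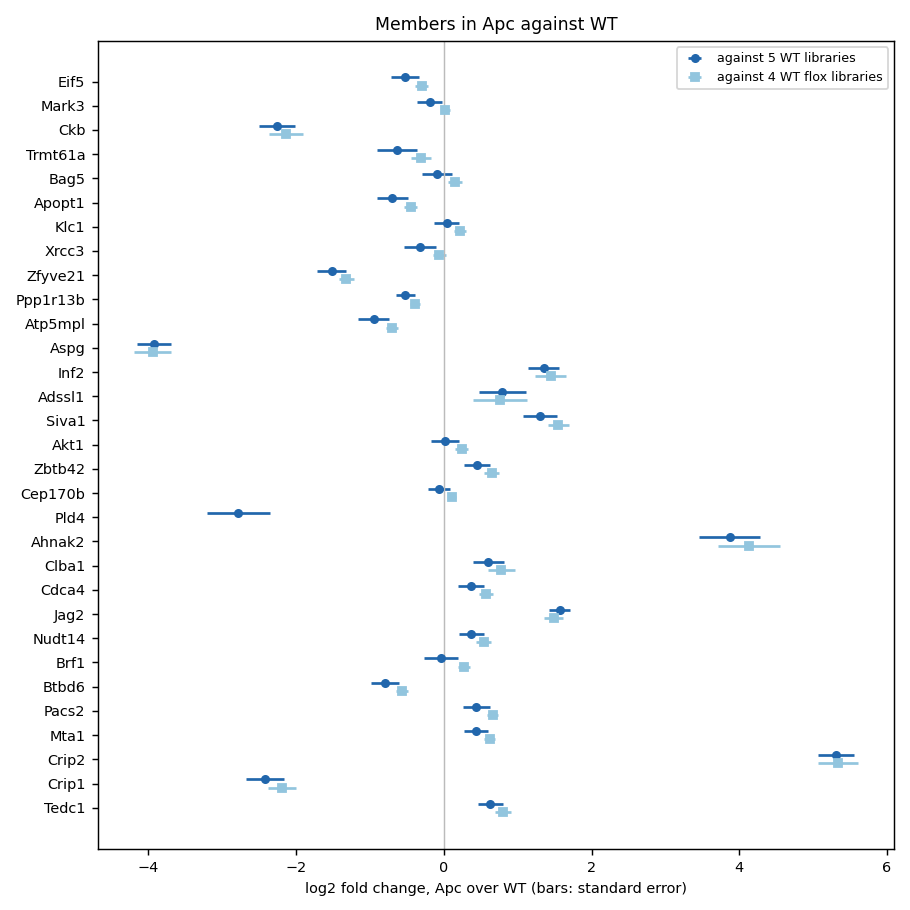
Fitted log2 fold change with its standard error for the members in Apc against all 5 WT libraries (circles) and against the 4 WT flox libraries (squares, no value for Pld4). Most members move to the right when the dox-naive library is left out, and Crip2, Ahnak2, Aspg, Crip1 and Ckb keep their sides.

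In the pathway lists, 7 AKT signalling genes rose and 12 fell of 29 tested in Apc (median −0.07, beside 0.00 over all genes), where 30.0% of all genes rose and 29.0% fell. The genes that rose include Irs1 and Pik3cd, which passed the filter only through Apc. Their mean FPKM was 0.0247 and 0.0693 in WT and 2.36 and 0.419 in Apc, so their rise is no separate support. Also higher were Akt2 (0.29 ± 0.06, adjusted p = 0.0019), Pik3ca (0.38 ± 0.08, adjusted p = 0.0016) and Pik3cb (0.37 ± 0.11, adjusted p = 0.01). Inpp4b (1.11 ± 0.23, adjusted p = 0.0017) and Rictor (0.39 ± 0.14, adjusted p = 0.033) rose too. The AKT genes that fell included the phosphatases Phlpp1 (−1.01 ± 0.09, adjusted p = 3e-06) and Phlpp2 (−1.34 ± 0.13, adjusted p = 6.4e-06). They also included the upstream kinase Pdpk1 (−0.33 ± 0.06, adjusted p = 0.00063), Pik3r1 (−0.68 ± 0.10, adjusted p = 0.00016) and Mapkap1 (−0.54 ± 0.06, adjusted p = 1.5e-05). Mean FPKM of Pdpk1 was nearly equal, with 12.6 in WT and 12.4 in Apc. For Pik3r1 (19.4 and 15.8) and Mapkap1 (36.5 and 28.2) it was lower in Apc. Of 26 Notch genes, 10 rose and 13 fell (median −0.18), beside the same shares of all genes. The ligand Jag1 (1.05 ± 0.15, adjusted p = 0.00012) rose as Jag2 did, and the ligands Dll1 (−1.18 ± 0.19, adjusted p = 0.00034) and Dll4 (−0.85 ± 0.18, adjusted p = 0.0017) fell. The receptors Notch2 (1.40 ± 0.12, adjusted p = 3.2e-06) and Notch3 (2.39 ± 0.31, adjusted p = 5.8e-05) rose. Notch4 fell (−1.45 ± 0.25, adjusted p = 0.0005), and Notch1 did not pass (0.06 ± 0.16, adjusted p = 0.77). The target Hes1 (−0.36 ± 0.13, adjusted p = 0.03) and the secretory factor Atoh1 (−1.44 ± 0.33, adjusted p = 0.0031) fell. Mean FPKM of Hes1 was 59.7 in WT and 57.2 in Apc. Larger falls in this list included Olfm4 (−9.78 ± 0.63, adjusted p = 4e-07) and Nrarp (−1.78 ± 0.22, adjusted p = 4.4e-05). Hes5, at a low level, fell as well (−2.99 ± 0.49, adjusted p = 0.00031). Of the creatine system, 1 gene rose and 3 fell of 5 tested (median −1.59), again beside 30.0% and 29.0% of all genes. Ckmt1 (−2.18 ± 0.13, adjusted p = 1.9e-07) and Slc6a8 (−1.59 ± 0.23, adjusted p = 0.00012) fell together with Ckb, and Gatm, which passed the filter only through Apc, had a log2 fold change of 3.21 ± 0.59, or 4.0 ± 0.49 against WT flox.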

How the data were processed

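Total RNA of intestinal organoids was sequenced in 15 libraries. Raw read counts per gene (HTSeq 0.6.0) and FPKM values (Cufflinks 2.2.1) were deposited, both made by the authors from STAR alignments to GRCm38. The strand setting and the annotation release were not given in the sources used here. Gene symbols and coordinates came from a GENCODE annotation of GRCm38 and matched 42462 genes. Genes reaching 0.1 FPKM in 4 or more libraries of a comparison were tested with edgeR 4.0.16 (R 4.3.3, TMM, quasi-likelihood, Benjamini-Hochberg over all genes tested, called at an adjusted p under 0.05). DESeq2 1.42.0 and limma 3.58.1 were used as alternatives. The script was tested on simulated data. The interval, its members and the gene lists were chosen with earlier results of these data known, so no p-value is given for P-Rspo3 against WT. Every member is named, with values per library for Akt1, Jag2, Ckb and the 5 largest and 3 smallest P-Rspo3 fold changes. Library totals limit precision for members with few reads. The labels do not say whether libraries of a group came from separate animals, so adjusted p-values measure the spread between these libraries.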

Additional observations from a re-analysis of the deposited data

Results flagged for a closer look

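Groups of 4 or 5 libraries were searched for a library set far apart from the rest (by chance about 1 in 20 groups of independent values, a share of 0.05). Of 96 groups, 21 were marked, and 17 of these concerned the dox-naive library within WT. Which libraries the choice of the interval rested on is not recorded. The high values of the dox-naive library are treated as part of that choice, and the members share a segment. These marks are therefore read as describing the choice, and their number is no evidence of its own. The segment level of the dox-naive library was 0.81, with the other WT libraries at −0.08 to 0.05. The members marked in it, in CPM, were Eif5 (1000.4), Mark3 (151), Trmt61a (57.4), Bag5 (59.8), Apopt1 (63.0), Klc1 (75.5), Xrcc3 (39.9), Zfyve21 (87.0), Ppp1r13b (123), Atp5mpl (241), Akt1 (426), Cep170b (365), Brf1 (89.1), Btbd6 (44.5), Pacs2 (139) and Mta1 (100).

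Among the P-Rspo3 libraries, 15d stood apart in Xrcc3 (38.7 CPM, others 37.1 to 37.3), Zfyve21 (79.6 CPM, others 93.3 to 94.8) and Pld4 (1.85 CPM, others 0.623 to 0.763). Apc 6 stood apart in Ahnak2 (19.2 CPM, others 8.14 to 9.03). The causes were not tested.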

How the results depend on the processing

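Without the dox-naive library, or with WT flox lines only, the median P-Rspo3 log2 fold change of the members went from 0.77 to 0.99, the members above every WT library from 11 to 23, and the members called higher in Apc from 8 to 15. Leaving out each library in turn gave medians of 0.69 to 0.99, 11 to 23 members above every WT library, and 6 to 15 called higher and 8 to 11 called lower in Apc. The median was 0.74 without the FPKM filter, 0.75 and 0.81 by limma on log2 FPKM values with a pseudocount of 1 and of 0.1, and 0.65 with LIPO and NAIVE_F grouped by their genotype field. With that grouping 0 members lay above every WT library. NAIVE_F then counts as P-Rspo3, and its measured segment level was −0.09, near the WT flox libraries. In Apc, limma called 14 members higher and 7 lower with either pseudocount. The median of all genes was then 0.17 with a pseudocount of 1 and 0.28 with 0.1. With these pseudocounts the falls were weaker in Apopt1 (−0.36 and −0.37), Ppp1r13b (−0.19 and −0.21) and Eif5 (−0.20 with either). A log2 limit of 1 left 5 higher and 5 lower (12.2% and 14.1% of all genes). Same-numbered WT flox and Apc libraries share a number in their titles. Their deviations from the group means correlated at r = 0.0132 to 0.196 over 4 pairs (median 0.0928, against −0.0312 for 12 other pairs), and 5 of 8 libraries correlated best with their own number, so pairing is not established. With this number as a replicate block 15 were called higher and 10 lower, Akt1, Zbtb42, Cdca4, Nudt14, Brf1, Pacs2 and Adssl1 among the higher, and the same block with WT flox lines only, chosen after seeing the data, also gave 15 higher. DESeq2 called 11 higher and 11 lower. Shares of all genes called in Apc were taken only against all 5 WT libraries, against WT flox and with the log2 limit. The counts in the other settings have no such share beside them, so they describe the settings and set the members apart from no other genes.

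Against all 5 WT libraries, segment levels were 0.79 in P-Rspo3, 0.65 in WT naive, −0.13 in LIPO, −0.26 in NAIVE_F and 0.06 in Apc. As a mean over members they were 0.81 in P-Rspo3, 0.69 in WT naive, −0.15 in NAIVE_F and 0.21 in Apc. On log2(FPKM + 0.1) they were 0.98 in P-Rspo3, −0.02 in NAIVE_F and 0.51 in Apc, where limma against all WT put the median of all genes at 0.28 on that scale, and with members of at least 10 CPM 0.98 in P-Rspo3 and 0.13 in Apc.

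The direction in Apc turned for 7 members with small changes. By limma with the larger and the smaller pseudocount, where the median of all genes was 0.17 and 0.28, it became 0.12 and 0.13 for Mark3, 0.23 and 0.25 for Bag5, 0.15 and 0.17 for Xrcc3, 0.23 and 0.24 for Cep170b, and 0.28 and 0.31 for Brf1. With WT flox lines only it was 0.02 for Mark3, 0.15 for Bag5, 0.11 for Cep170b and 0.27 for Brf1, and with the replicate block 0.03, 0.15, 0.11 and 0.28 (0.02, 0.15, 0.11 and 0.27 with both). Brf1 was at 0.00 with the genotype-field grouping. Leaving out 1 library gave −0.25 to 0.02 for Mark3, −0.17 to 0.15 for Bag5, −0.12 to 0.11 for Cep170b, −0.13 to 0.27 for Brf1, −0.04 to 0.22 for Klc1 and −0.06 to 0.24 for Akt1. The calls of Eif5, Clba1 and Mta1 were each lost when some single library was left out, with changes of −0.55 to −0.50, 0.50 to 0.62 and 0.36 to 0.44. The causes were not tested.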
